A study of Mus musculus with 18 samples.

Results

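Voltage-gated sodium channels are built from 1 large pore-forming alpha subunit and smaller beta subunits, and 7 of their genes were followed here in injured mouse retina: the alpha subunits Scn1a, Scn3a, Scn8a and Scn9a and the beta subunits Scn2b, Scn3b and Scn4b. A gene was taken up where the RefSeq accession that the array design gives for a probe paired with its symbol, which found 5 of the 7 genes through 10 of 39429 probes. No probe paired with Scn9a or Scn3b in the table used, and these genes were not analysed here. All 5 found genes were bright enough to be tested among 25374 genes, and 9 of their 10 probes were.

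All mice carried floxed alleles of Map3k12, the gene of dual leucine zipper kinase (DLK), and all were given tamoxifen at 10 to 12 weeks of age. Cre-positive mice also carried a CAG Cre-ERT transgene, a tamoxifen-activated recombinase expressed in many tissues and not confined to neurons, and per the labels' protocols a small and variable amount of DLK protein remained. Cre-negative littermates lacked the transgene. Whole retinas were taken 3 days after optic nerve crush, and the series' design text names the uninjured eye as the control, but no label ties an eye to an animal. Arrays fell into Cre-negative uncrushed (n = 4), Cre-negative crushed (n = 3), Cre-positive uncrushed (n = 5) and Cre-positive crushed (n = 5) groups. Each array carried Cy5-labelled retinal RNA beside a Cy3-labelled universal mouse reference, and a level is the log2 ratio of Cy5 to Cy3 for 1 probe, so levels are compared between groups and not between probes. Another Cre-negative array is uncrushed by its title and its treatment label but crushed by its description, and it stayed out of every group.

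Sodium channels carry the rising phase of the action potential. In the retina they matter most in ganglion cells, whose axons form the optic nerve and which hold dense channel clusters at the axon initial segment and, beyond the eye, at the nodes of Ranvier. Alpha subunits form the ion path, while beta subunits are single-pass membrane proteins with an immunoglobulin-like outer domain that tune channel gating and help to place channels in the membrane. The beta subunits of Scn2b and Scn4b are linked to the alpha subunit by a disulfide bond.

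Scn2b and Scn4b, the members that passed the test after crush in Cre-negative retinas, are direct neighbours on chromosome 9, with 0 other genes starting between them in the RefSeq table and 20748 bases between the starts of their promoter windows. The stretch of 250 bases before each RefSeq start site is shown because both genes fell. Both come from the forward strand of GRCm38.p6, Scn2b from chr9:45117626-45117875 and Scn4b from chr9:45138374-45138623, with capitals marking each CG dinucleotide.
Scn2b: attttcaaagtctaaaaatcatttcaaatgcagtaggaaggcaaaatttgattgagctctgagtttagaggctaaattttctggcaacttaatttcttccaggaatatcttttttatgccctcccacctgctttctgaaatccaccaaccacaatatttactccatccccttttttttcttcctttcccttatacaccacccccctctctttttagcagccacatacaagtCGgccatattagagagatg
Scn4b: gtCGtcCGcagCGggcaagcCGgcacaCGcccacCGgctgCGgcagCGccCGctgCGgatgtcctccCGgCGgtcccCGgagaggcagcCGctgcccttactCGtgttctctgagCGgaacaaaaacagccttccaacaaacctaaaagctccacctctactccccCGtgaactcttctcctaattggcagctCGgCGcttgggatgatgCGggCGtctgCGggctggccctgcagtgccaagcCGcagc
The stretch before Scn2b held 1 CG dinucleotide and 38.4% G or C, whereas that before Scn4b held 23 and 66.0%. Over the 300 bases of the full RefSeq window, which adds the first 50 transcribed bases, 38.3% G or C placed Scn2b above 7.45% of 32851 mouse promoters and 66.3% placed Scn4b above 84.4% of them. In that window the E-box letters CANNTG, which read the same on both strands and occur in 72.3% of all promoters, were found at 3 positions for Scn2b and at 0 for Scn4b. Promoters were present for 5 of the 7 members. In none of their 6 windows, on either strand, were there letters of a GC box (GGGCGG, in 35.7% of all promoters), a cAMP response element (TGACGTCA, 1.79%), an AP-1 site (TGANTCA, 7.81%), a TATA box (TATAAA, 13.6%) or a homeodomain core (TAATTA, 5.29%). Such matches describe letters in these windows only.

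Arrays were alike in signal and in correlation. In Cy5, 68.1% to 76.2% of spots were well above background. The mean correlation of an array with the others of its group ran from 0.985 to 0.994. Esr1, part of which is in the Cre-ERT transgene, was higher in Cre-positive than in Cre-negative arrays by 3.05 in uncrushed and 3.71 in crushed retinas. A second Esr1 probe gave -0.01 and -0.15 and was not called. Map3k12 was lower by 0.43 and 0.47 on the log2 scale, with limma adjusted p-values of 0.88 and 0.061, and where its probe lies relative to the floxed stretch is not given in the sources used here. Cre-positive uncrushed replicate 4 stood apart in markers of cornea, iris and ciliary body (mean log2 ratio 1.10, others at or below -0.48), and Cre-positive crushed replicate 5 in lens markers (1.52, against at most 0.68 on other arrays with a group). Without both arrays, Scn4b fell by 0.56 after crush in Cre-positive retinas (limma adjusted p = 0.0043), and the difference between genotypes in its response was 1.48 (adjusted p = 6.7e-06). Pigment epithelium markers were uneven between genotypes. Their mean ran from 0.95 to 1.97 on Cre-positive uncrushed and 0.82 to 1.99 on Cre-positive crushed arrays. Cre-negative ranges were 1.01 to 1.32 without and 0.83 to 1.16 with crush. Between crushed genotypes their median difference was 0.63, with 0 of 8 called. The labels do not say that replicates came from separate animals, so p-values measure the spread between these arrays.

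With DLK present, crush was followed by a steep fall of Scn4b and a smaller fall of Scn2b, while the alpha subunits did not pass the test. In Cre-positive retinas only Scn4b of the 5 members passed, with a much smaller fall. Scn4b was also the member whose crush response differed between genotypes in a test of that difference.

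**Figure D1:**
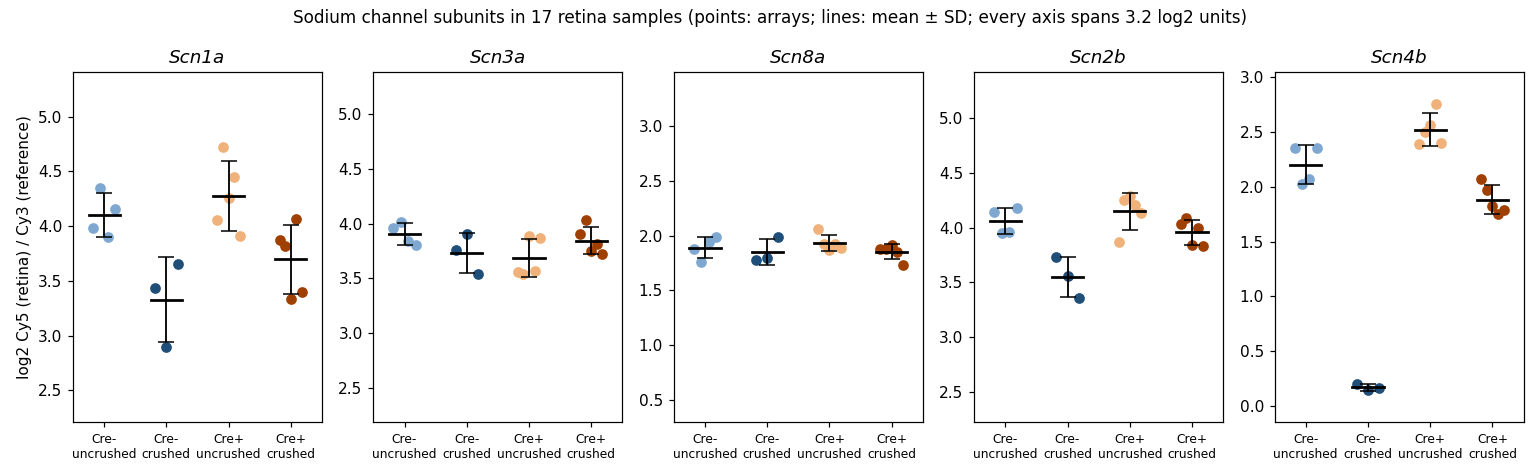
Level of each sodium channel subunit (1 probe per gene, the brightest) on 17 arrays, as log2 Cy5 over Cy3, in the 4 groups; points are arrays, lines the mean and SD, and every axis spans the same range of log2 units. Scn4b lies between 0.14 and 0.20 on the 3 Cre-negative crushed arrays and between 1.75 and 2.76 on all others.

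Scn4b encodes the beta subunit whose inner tail is known to block open channels and let them reopen, the resurgent sodium current of fast-spiking neurons. Its log2 ratios were 2.02, 2.07, 2.36 and 2.36 on the Cre-negative uncrushed arrays and 0.14, 0.16 and 0.20 on the Cre-negative crushed arrays. The groups lay far apart, and the ratios of the crushed arrays differed little among themselves (mean 0.17 ± 0.03, SD, n = 3, against 2.20 ± 0.18, n = 4). Their spots were dim, however, and the offset used in background correction draws ratios of dim spots toward 0. In Cy5 alone the same 3 arrays spread more, at 6.93, 7.02 and 7.40 on the log2 scale. The small SD is therefore no measure of agreement between replicates. The fall was 2.04 on the log2 scale (SE 0.10, limma adjusted p = 4.9e-10), which left 24.4% of the uncrushed ratio, and it ranked 1 among falls of all 25374 genes. In whole tissue, fewer cells that express a gene and less of its RNA in each cell cannot be told apart.

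On Cre-positive arrays Scn4b stood at 2.39, 2.41, 2.498, 2.56 and 2.76 without crush and at 1.75, 1.79, 1.83, 1.97 and 2.07 after crush. These groups did not overlap either, but every crushed value lay well above those of Cre-negative crushed retinas. The fall was 0.64 (SE 0.08, limma adjusted p = 0.00083), to 64.1% of the uncrushed ratio, and ranked 19 among falls. The test of the difference between genotypes gave 1.39 (SE 0.13, 95% confidence interval 1.12 to 1.67, limma adjusted p = 1.1e-05), and 5 genes had a larger positive difference. Counting the array with disagreeing labels as uncrushed ended both calls (limma adjusted p = 0.54 for the Cre-positive fall and 0.62 for the difference of 0.98). The Cre-positive fall itself stayed at 0.64, but its SE rose to 0.285, since all groups share the estimate of spread. Counting the array as crushed ended neither call.

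Between genotypes, Scn4b was higher in Cre-positive than in Cre-negative crushed retinas by 1.71 (SE 0.10, limma adjusted p = 4.9e-09), a 3.28-fold ratio. Before injury the Cre-positive mean was higher by 0.32 (SE 0.09), and although the groups did not overlap, limma's adjusted p was 0.88. From high to low the group means were 2.52 ± 0.15 (Cre-positive uncrushed, SD, n = 5), 2.20 ± 0.18 (Cre-negative uncrushed, n = 4), 1.88 ± 0.13 (Cre-positive crushed, n = 5) and 0.17 ± 0.03 (Cre-negative crushed, n = 3). Cre-negative uncrushed and Cre-positive crushed arrays, next to each other in this order, had overlapping ranges of 2.02 to 2.36 and 1.75 to 2.07 and were not compared by a test.

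The raw spot shows the same order. Median Cy5 intensity of the Scn4b spot ran from 934 to 1089 scanner units on Cre-negative uncrushed arrays and from 148.5 to 200 on crushed ones, over a local background that averaged 78.1 and 82.5. Cre-positive arrays gave 1018.5 to 1158.5 without and 506 to 793 with crush. The spot was well above background in Cy5 on all 17 arrays. Cy3, the reference, ran from 97.0 to 106.5 on Cre-negative uncrushed and from 65.0 to 96.0 on Cre-negative crushed arrays, which do not overlap, and its difference was -0.38 (SE 0.12, limma adjusted p = 0.68). The reference thus read lower on the arrays where Cy5 was lower, by much less than Cy5. On Cre-positive arrays Cy3 ran from 69.5 to 101 without and from 73.0 to 97.0 with crush. With Cy5 alone the fall was 2.42 without and 0.77 with the Cre transgene. The offset of 50 added to both channels draws ratios of dim spots toward 0, and with an offset of 16 the Cre-negative fall was 2.31.

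**Figure D2:**
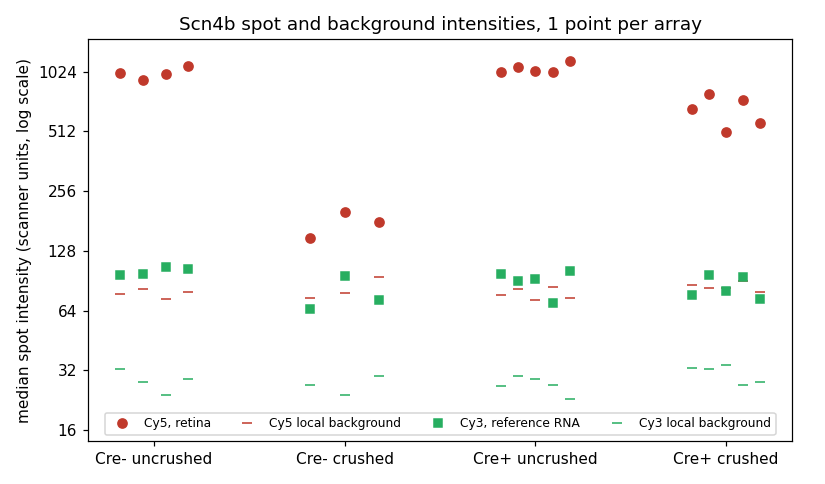
Median Cy5 (retina) and Cy3 (reference) intensity of the Scn4b spot, with the local background of each dye, 1 point per array in the 4 groups, on a log axis. Cy5 drops to between 148.5 and 200 in Cre-negative crushed retinas, where Cy3 reads 65.0 to 96.0, against 97.0 to 106.5 in Cre-negative uncrushed retinas.

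Scn2b encodes the other member of the disulfide-linked pair, a beta subunit that raises the number of channels at the neuronal surface. Its log2 ratios were 3.95, 3.96, 4.14 and 4.18 on Cre-negative uncrushed arrays and 3.36, 3.56 and 3.73 on crushed ones. The crushed arrays all lay below the uncrushed ones. The fall was 0.51 (SE 0.10, 95% confidence interval 0.29 to 0.73, limma adjusted p = 0.011), to 70.2% of the uncrushed ratio. It lost its call in 3 of 34 alternatives: without Cre-negative crushed replicate 3 (a fall of 0.42, limma adjusted p = 0.088), with the array with disagreeing labels counted as uncrushed (0.43, 0.12) and with processed signals (0.53, 0.05002).

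In Cre-positive retinas Scn2b ran from 3.87 to 4.29 (median 4.202) without and from 3.83 to 4.08 (median 3.999) with crush, and the groups overlapped. The difference was -0.19 (SE 0.09, limma adjusted p = 0.50). The responses differed between genotypes by 0.32 (95% confidence interval 0.04 to 0.60, limma adjusted p = 0.53), so a weaker response in Cre-positive retinas was not shown. Among crushed retinas, Cre-positive and Cre-negative arrays did not overlap, and their difference of 0.41 (SE 0.10) missed the threshold (limma adjusted p = 0.054). It passed without Cre-positive uncrushed replicate 1 (adjusted p = 0.022) and without Cre-negative crushed replicate 1 (a difference of 0.50, adjusted p = 0.039). Uncrushed groups differed by 0.09 (95% confidence interval -0.10 to 0.28).

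Of the 5 members 2 were called lower after crush in Cre-negative retinas, where 2.15% of all tested genes were called and 0.808% were called lower. The members' median difference was -0.51, against 0.0015 over all genes. For Cre-positive retinas the count was 1 lower of 5, where 0.769% of genes were called and 0.0867% lower, with medians of -0.19 and 0.00036. One member was called in the test of the difference between genotypes, where 0.418% of genes were called and 0.134% in its direction. Comparing genotypes, 0 members were called in uncrushed retinas, where limma called 0.0118% of genes, or 3 (1418 had an unadjusted p under 0.05, Scn3a and Scn4b among them), and 1 was called higher in crushed retinas, where 1.15% were called and 0.607% higher. Groups without overlap were common: 15.4% of genes in the Cre-negative crush comparison, 2.08% in the Cre-positive one, 1.96% between uncrushed and 10.3% between crushed genotypes. The crush and genotype comparisons share arrays. Members were chosen with earlier results of these data known, so their counts and medians set against all genes are no independent evidence.

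**Figure D3:**
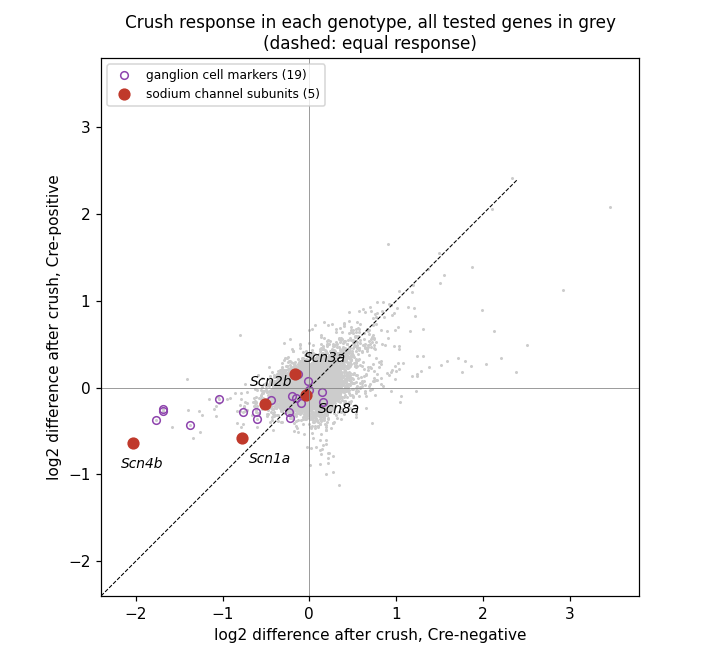
Log2 difference after crush in Cre-negative (x axis) and Cre-positive retinas (y axis) for all tested genes (grey), 19 ganglion cell markers (open circles) and 5 sodium channel subunits (red); the dashed line marks equal responses. Scn4b lies farthest to the left of all genes, at -2.04 and -0.64, and Scn8a and Scn3a lie near the centre.

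The alpha subunits did not pass the test in any of the 5 contrasts. Scn1a encodes an alpha subunit of the initial segment, known for its place in inhibitory neurons and in epilepsy. It stood at 3.90, 3.98, 4.16 and 4.35 on Cre-negative uncrushed arrays and at 2.90, 3.44 and 3.65 on crushed ones. Every crushed array lay below every uncrushed one, but they were widely scattered. The difference was -0.77 (SE 0.21, 95% confidence interval -1.21 to -0.33, limma adjusted p = 0.065), which ranked 31 among falls of all genes. It passed in 6 of 34 alternatives: without Cre-positive uncrushed replicate 2, which shares in the estimate of spread (limma adjusted p = 0.046), with no background subtraction (a fall of 0.84, 0.027), Cy5 alone (0.88, 0.033), array weights (0.66, 0.038), only the Cre-negative groups in the fit (0.77, 0.040) or the array with disagreeing labels counted as crushed (0.97, 0.016).

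In Cre-positive retinas Scn1a ran from 3.91 to 4.72 (median 4.26) without and from 3.34 to 4.07 (median 3.81) with crush, and the groups overlapped. The difference was -0.58 (SE 0.17, limma adjusted p = 0.17). The responses differed between genotypes by 0.19, with a 95% confidence interval of -0.38 to 0.75, which leaves room for either direction. A dimmer Scn1a probe gave -0.26 in Cre-negative (95% confidence interval -0.48 to -0.04, limma adjusted p = 0.27 over all probes) and -0.16 in Cre-positive retinas. Its Cy5 signal of 130 to 262 units stood close to the local background, where the offset shortens differences most.

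Scn3a, an alpha subunit best known from the developing brain, had overlapping groups in both genotypes. It ran from 3.81 to 4.01 on Cre-negative uncrushed and from 3.54 to 3.90 on crushed arrays, a difference of -0.17 (95% confidence interval -0.39 to 0.05, limma adjusted p = 0.53). Cre-positive arrays ran from 3.54 to 3.89 without and from 3.72 to 4.03 with crush, a difference of 0.16 (-0.02 to 0.34, limma adjusted p = 0.59). The signs were opposite, and the difference of responses was 0.33 (0.04 to 0.62, limma adjusted p = 0.53). The other Scn3a probes gave -0.09 and -0.22 without and -0.11 and 0.07 with the Cre transgene, none called. The dimmest was well above background in Cy5 on only 5 of 17 arrays.

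Scn8a encodes the main alpha subunit of mature initial segments and nodes. Its bright probe moved least of all members: 1.76 to 1.99 on Cre-negative uncrushed, 1.78 to 1.99 on Cre-negative crushed, 1.87 to 2.06 on Cre-positive uncrushed and 1.74 to 1.92 on Cre-positive crushed arrays. All ranges overlapped. The 95% confidence intervals of its crush differences, -0.19 to 0.11 in Cre-negative arrays and -0.20 to 0.04 in Cre-positive arrays, leave out changes of the size seen for Scn4b. This probe read 13041 to 19219 Cy5 units over a mean background of 77.2 to 80.0. Of the other Scn8a probes, 1 was near background and gave -0.04 and 0.02, and 1 was well above background on 2 of 17 arrays and was not tested.

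**Figure D4:**
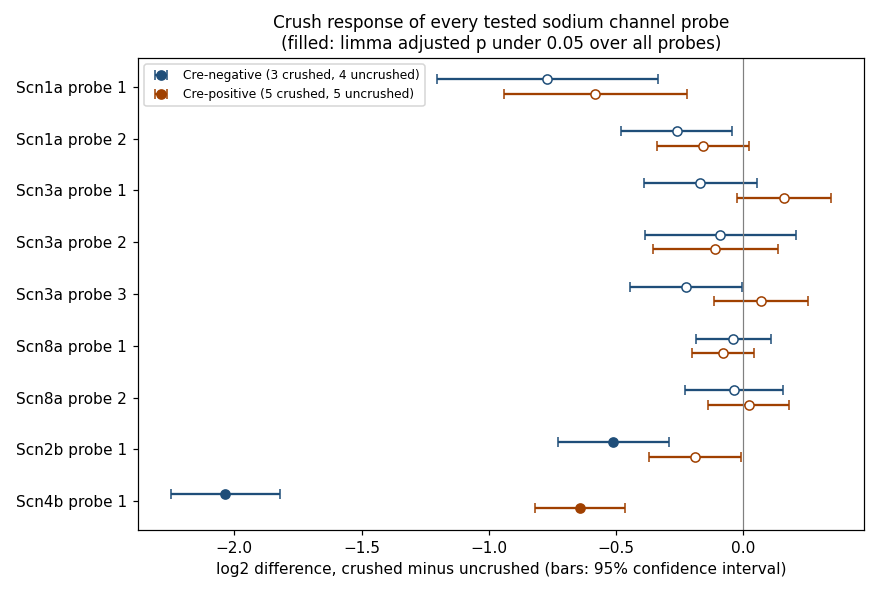
Log2 difference between crushed and uncrushed arrays for each of the 9 tested sodium channel probes, in Cre-negative (blue) and Cre-positive (brown) retinas, with 95% confidence intervals; filled points passed limma at an adjusted p under 0.05 over all probes. All 9 Cre-negative points lie below 0, and 3 points are filled: Scn4b in both genotypes and Scn2b in Cre-negative retinas.

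Tested singly among 30484 probes, 2 of the 9 sodium channel probes were called lower after crush in Cre-negative retinas (1.97% of all probes were called, 0.768% lower), although all 9 differences were negative. In Cre-positive retinas 1 of 9 was called lower (0.735% called, 0.0886% lower) and 6 of 9 were negative. Probes of 1 gene share its transcripts and are no independent evidence.

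Arrays were printed on 5 slides, and several slides held crushed and uncrushed arrays of 1 genotype side by side. On slides 2, 3 and 5 the Cre-negative difference in Scn4b was -1.86, -2.16 and -1.93. Cre-positive differences on slides 1 to 4 were -0.87, -0.61, -0.43 and -0.43. All were negative, and each Cre-negative value lay below each Cre-positive one. Scn2b gave -0.59, -0.45 and -0.40 in Cre-negative pairs and -0.32, -0.04, -0.22 and -0.05 in Cre-positive retinas. For Scn1a the values were -0.70, -0.72 and -1.004 and then -0.65, -0.66, -0.85 and -0.10. Slide 1 held only Cre-positive and slide 5 only Cre-negative arrays, so genotype and slide were partly confounded. Within slides 2, 3 and 4 the genotype difference of Scn4b in uncrushed retinas was 0.37, 0.14 and 0.05. In crushed retinas it was 1.62 and 1.87 within slides 2 and 3. On every slide uncrushed retinas lay at odd and crushed ones at even array positions, so position and crush cannot be told apart.

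**Figure D5:**
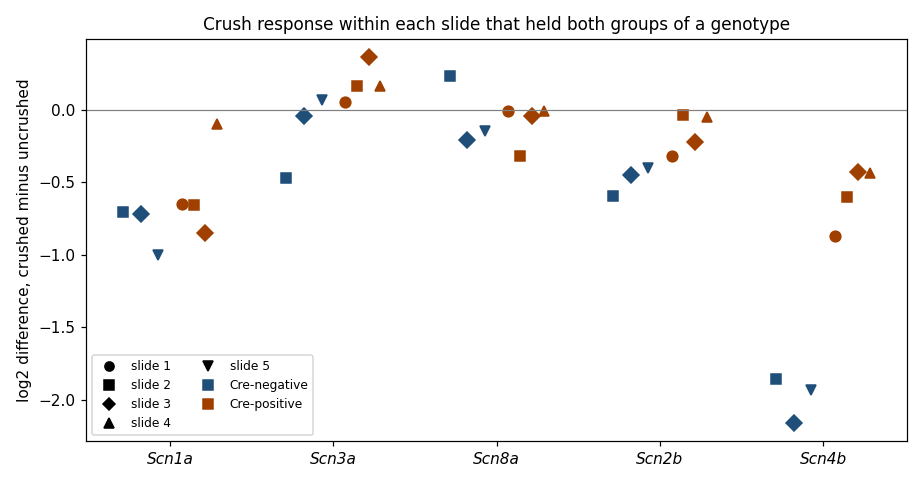
Crushed minus uncrushed log2 ratio within each slide that held both groups of a genotype, for 5 sodium channel subunits; each point is 1 pair of arrays, except on slide 1, where it is the difference of the means of 2 and 2 arrays. For Scn4b the Cre-negative points (-2.16 to -1.86) lie below the Cre-positive ones (-0.87 to -0.43).

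Other genes of the family were listed beside the members, among them the alpha subunits Scn2a, Scn4a, Scn7a, Scn10a and Scn11a and the leak channel Nalcn. Of the 8 listed genes 6 were bright enough to test, and limma called 0 in each of the 5 contrasts. At an unadjusted p under 0.05, 3 of the 6 were lower after crush in Cre-negative retinas. Over all tested genes, 3393 of 25374 had such a p in that comparison, in either direction. Scn2a and Scn11a (named after their values were seen) were among the 3, with differences of -0.46 and -0.17. The probes of Scn2a disagreed, with -0.46, -0.22 and 0.09. The median difference of the 6 genes was -0.05.

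Partners of the channels were listed too, among them anchors such as Ank3, node adhesion proteins such as Nfasc and Cntnap1, fibroblast growth factor homologous factors, calmodulins and ubiquitin ligases. Of 27 listed genes 26 were tested, and 1 was called higher and 1 lower after crush in Cre-negative retinas, with a median of -0.07. Among all tested genes 2.15% were called in that comparison, 0.808% lower. Fgf12, an intracellular factor that binds the tail of alpha subunits and shifts their inactivation, fell by 0.62 (SE 0.08, limma adjusted p = 6.1e-05). It ran from 4.82 to 5.05 on uncrushed and from 4.25 to 4.38 on crushed Cre-negative arrays, without overlap. In crushed retinas it was higher in Cre-positive than in Cre-negative arrays by 0.43 (SE 0.07, limma adjusted p = 0.0035). A second Fgf12 probe gave -0.43 after crush (limma adjusted p = 0.052 over all probes).

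S100a10 encodes an annexin partner that carries some sodium channels to the cell surface, and it moved the other way. It was higher after crush in Cre-negative retinas by 0.73 (SE 0.11, limma adjusted p = 0.00093), from between -3.22 and -2.96 to between -2.38 and -2.31. The Cre-positive difference was -0.01, and the test of the difference between genotypes gave -0.74 (SE 0.15, limma adjusted p = 0.026). In crushed retinas its level was lower in Cre-positive arrays by 0.57 on the log2 scale (limma adjusted p = 0.0099). No partner was called after crush in Cre-positive retinas or between uncrushed genotypes.

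The sodium pump restores the gradient that the channels spend, and 5 of its 6 listed genes were tested. In Cre-negative retinas 0 passed after crush, with a median of 0.04. Atp1b1, an accessory subunit, was higher by 0.37 in Cre-positive than in Cre-negative crushed retinas (SE 0.08, limma adjusted p = 0.024).

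Markers of retinal cell types were measured on the same arrays. Of 19 tested ganglion cell markers 9 fell after crush in Cre-negative retinas, where 0.808% of all tested genes were called lower, and 3 with Cre (0.0867%). Pou4f3, the remaining listed marker, was too dim to test. Mean log2 ratios of the tested ganglion cell markers ran from 2.48 to 2.60 on Cre-negative uncrushed and 1.96 to 2.01 on Cre-negative crushed arrays. They ran from 2.62 to 2.69 on Cre-positive uncrushed and 2.42 to 2.49 on Cre-positive crushed arrays. These ranges fall in the same order as those of Scn4b. The fall of Scn4b (2.04) was larger than that of any tested ganglion marker, of which Pou4f2, a transcription factor of these cells, fell most, by 1.77. No marker of rods (10), cones (9) or bipolar cells (12) passed in either crush comparison, and 1 of 12 amacrine markers fell in Cre-negative retinas. Microglia and macrophage markers rose after crush, 4 of 10 without and 8 of 10 with Cre. Of all tested genes 2.15% and 0.769% were called in these comparisons, in either direction. The part of these shifts in the sodium channel results was not tested.

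The genes whose levels followed Scn4b most closely over the 17 arrays, by Pearson's r among 16757 genes with a symbol, were Tppp3 (0.986), Rbpms2 (0.969), Fkbp1b (0.968), Isl2 (0.963), Itpka (0.961), Emb (0.955), Nefh (0.954), Pvalb (0.952), Irx2 (0.951) and Cdk14 (0.950). Much of this likeness lies between groups. After group means were removed, r was 0.68 for Tppp3 and between -0.25 and 0.36 for the other 9. Rbpms2, Isl2 and Nefh are also on the ganglion cell list.

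Scn2b was closest to Tppp3 (0.917), Pcdh10 (0.914) and Rasgrp2 (0.913), and Scn1a to Cpne4 (0.899), C1qtnf12 (0.896) and Rnf150 (0.875). Scn3a was closest to Naxd, Hipk3 and Rsl24d1 (0.888 to 0.848), and Scn8a to Hecw1, Madd and Ung (0.969 to 0.960), genes whose crush differences were at most 0.15 in size. Between members, r was highest for Scn2b and Scn4b (0.888, or 0.607 within groups) and lowest for Scn3a and Scn8a (-0.510). All these values share the same 17 arrays and are descriptions.

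The protein-coding genes that flank Scn2b and Scn4b, taken by position after the results were known, were not called. Of the 3 on either side 5 were tested. Jaml, the nearest before Scn2b, differed by -0.04 after crush in Cre-negative retinas, and Tmprss4, the nearest after Scn4b, by -0.02.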

How the data were processed

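The deposited scanner files hold median spot and local background intensity for both dyes, not normalized, and per the file headers came from Agilent Feature Extraction 10.7.3.1, which also wrote processed intensities and a log10 ratio of processed Cy5 over Cy3. A further deposited file holds the authors' normalized value of every probe on each array, made with limma per the submitters' processing notes, without a version. Its scale is not stated, and the authors' values were taken as log2 of Cy5 over Cy3, since they followed the ratios computed here (r across probes 0.9996 to 1.0000, slopes 1.00 to 1.02, column medians 0.015 to 0.024; after probe means were removed, r was 0.962 for Cre-positive uncrushed replicate 1 and 0.998 to 1.000 for the others). How background was handled there is not stated.

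In R 4.3.3 with limma 3.58.1, median intensities were corrected by normexp with an offset of 50 and loess-normalized within arrays. The plan had named spot intensity in general. Files were read by version 1.17.8 of data.table. Spots of a probe were averaged. Probes had to stand well above Cy5 background on 3 or more of 17 arrays, and a gene was read from the kept probe with the highest mean intensity. The 17 arrays were fitted with a mean per group (13 residual and 4.49 prior degrees of freedom), with 5 two-sided contrasts and Benjamini-Hochberg adjustment over all genes, or over all probes where single probes were tested; a call is an adjusted p under 0.05. Precision is limited by the number of arrays. The model was also run on simulated data with independent noise and without slide or position effects, so that run does not bear on such effects.

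Members, gene lists and marker lists were chosen with earlier results of these data known. Named genes were the members, listed genes that passed in any contrast, and the 10 (Scn4b) or 3 (other members) genes with the highest r; some listed genes are not reported here. The array header names mm9 and the sequences, from RefSeq, GRCm38.p6, so probe positions are not given. Alternatives covered background correction, channel, scaling, probe filter and choice, slide, array weights, the array with disagreeing labels and each array left out.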

Additional observations from a re-analysis of the deposited data

Results flagged for a closer look

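The crush response of Scn4b differed between genotypes in a direct test, by 1.39 on the log2 scale (SE 0.13, limma adjusted p = 1.1e-05), with falls of 2.04 without and 0.64 with Cre. Among 30 sets of arrays, each 1 sodium channel probe in 1 group of 4 or 5 arrays, 0 held an array that stood apart by Dixon's criterion.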

How the results depend on the processing

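Over 34 alternatives (33 for the difference between genotypes), Scn4b was called in 34 for the Cre-negative fall (-2.49 to -1.62) and in 34 between crushed genotypes (1.64 to 2.31). The Cre-positive fall was called in 32 of 34 and the difference between genotypes in 32 of 33. Counts of called members changed as follows. With processed signals 1 member passed after crush in Cre-negative retinas and 0 with Cre, where Scn4b stood at -0.68 (adjusted p = 0.085) and Scn2b in Cre-negative retinas at -0.53 (0.05002). With the disagreeing array as uncrushed the counts were 1, 0 and, for the difference between genotypes, 0. After crush in Cre-negative retinas 3 passed, Scn1a added, with no background subtraction, Cy5 alone, array weights, only the groups of the contrast or the disagreeing array as crushed (Scn1a at -0.97 to -0.66, adjusted p 0.016 to 0.040). Between crushed genotypes 2 passed, Scn2b added, with the authors' table, the stricter probe filter, slide as a random block, array weights or the disagreeing array as crushed. With each array left out in turn, the counts ran from 1 to 3 after crush in Cre-negative retinas and from 1 to 2 between crushed genotypes.

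Signs turned for uncalled values only. The Scn1a difference between genotypes was -0.38 with processed signals, -0.13 with the disagreeing array as uncrushed, and -0.028 to 0.35 with each array left out. Scn8a gave 0.083 after crush in Cre-negative retinas with Cy5 alone. Its difference between genotypes was 0.0086 with the mean of all probes and -0.078 to 0.027 with each array left out, and its uncrushed genotype difference -0.0045 to 0.072. Between crushed genotypes Scn8a gave 0.015 with the mean of all probes, 0.0036 and 0.00056 with slide as a fixed or random block, 0.0081 with array weights, 0.026 with the disagreeing array as crushed, 0.029 without both Cre-positive arrays that stand apart (added after seeing the data), and -0.038 to 0.067 with each array left out. These causes were not tested. In all, 810 of 845 values kept direction and side of the threshold. No paired analysis was possible because the labels carry no replicate numbers and tie no eye to an animal.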

Other observations

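The array with disagreeing labels, from a Cre-negative mouse, gave log2 ratios of 0.14 for Scn4b, 3.67 for Scn2b, 2.52 for Scn1a, 3.78 for Scn3a and 1.75 for Scn8a. Its ganglion cell markers averaged 1.91, against 1.96 to 2.01 on Cre-negative crushed and 2.48 to 2.60 on Cre-negative uncrushed arrays. Its lens markers averaged 1.27. The array lay at position 4 of slide 5, an even position. Which of its labels is right was not tested.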
